A study of Mus musculus with 6 samples.

Results

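Galectins are sugar-binding proteins that recognise beta-galactosides on glycoproteins and glycolipids. Their 7 genes described here are Lgals1, Lgals2, Lgals3, Lgals4, Lgals8 and Lgals9, which encode galectins, and Lgals3bp, which encodes a secreted glycoprotein that binds galectin-3 and is not itself a galectin. They were taken by gene symbol from the 23099 symbols in the deposited files, and each had 1 row. The members were chosen by symbol, and the only measured value the rule uses, the row mean over the 6 libraries, decides between repeated rows and was not needed. The family was taken up with earlier results of these data known.

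The samples are 3 Ela1-Myc and 3 wild-type (WT) libraries of polyadenylated pancreas RNA, from mice aged 8 weeks. The Ela1-Myc mice carry Myc under the promoter of elastase 1, which is active in acinar cells, whereas the RNA is from whole pancreas. The labels give no strain, sex or treatment, and do not say whether each library is another mouse, so the p-values reflect only how these samples vary. Values are the authors' adjusted FPKM after division by 100000, and sequencing depth is unknown. FPKM is a level corrected for transcript length and library size, but how it was adjusted here is not known. Library totals were unequal, from 629597 in Ela1-Myc replicate 2 to 1948844 in WT replicate 2.

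Galectins are made in the cytosol and leave the cell without a signal peptide. Outside the cell they cross-link receptors and matrix proteins, and inside it they bind glycans exposed on damaged vesicles. Galectin-1 and galectin-2 have a carbohydrate-binding domain and form dimers, galectin-3 joins such a domain to a flexible tail, and galectin-4, galectin-8 and galectin-9 carry a pair of linked domains. In the pancreas galectin-1 is known from stellate cells and fibroblasts, and galectin-3, long called Mac-2, from macrophages and from transformed epithelium.

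The tissue and genotype labels were checked first. All 16 acinar markers looked for were found by symbol. Their summed level was lower in all 3 Ela1-Myc libraries (144613 to 295211 after scaling) than in any WT library (951903 or more after scaling), while the groups overlapped before it. Among them Amy2a5 went the other way, with a listed 0 in WT replicates 1 and 3 and a higher call on both scales (limma). Myc stood at 52.0, 34.4 and 34.2 in Ela1-Myc replicates 1 to 3, against 4.10 in WT replicate 2 and a listed 0 in WT replicates 1 and 3. An exact 0 is not evidence of absence here, since of the 8802 tested genes 0, 29 and 13 were listed at 0 in Ela1-Myc replicates 1 to 3, and 1061, 592 and 1426 in the 3 WT replicates. RNA integrity numbers were 8.8, 7.2 and 8.3 in Ela1-Myc and 7.3, 7.3 and 7.1 in WT. The deposited scale placed most genes higher in Ela1-Myc, with a log2 change of the median gene of 1.22. Median-of-ratios scaling moved the median gene to 0.22, and each result is given on both scales. In whole tissue, more cells of a type and more RNA per cell cannot be told apart.

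Of the galectin genes, on both scales Lgals9, Lgals3 and Lgals8 were higher in Ela1-Myc, Lgals3bp was called on the deposited scale alone, Lgals2 was lower after scaling, and Lgals1 had overlapping ranks among all genes of a library. Lgals4 was too low to be tested. Of the 6 tested members 4 were called higher on the deposited scale (limma, Benjamini-Hochberg adjusted p under 0.05 over all tested genes), where 70.2% of all tested genes were called higher. That count of 4 of 6 is close to the background, which is 70.5% in either direction. None was called lower, where 0.239% of all tested genes were, and none of the 6 was lower at an unadjusted limma p under 0.05 either. After scaling 3 were called higher, where 17.1% of all genes were, and 1 was called lower, where 7.1% were and 24.2% were called in either direction. Of these 3, Lgals3 and Lgals8 met the filter only through Ela1-Myc, which favoured a higher call. The third, Lgals9, has a listed 0 in WT replicates 1 and 3. The count of 3 therefore cannot be read as an excess over all tested genes, and it ranged from 1 to 3 when 1 library was left out. Only 3 of the 6, Lgals1, Lgals2 and Lgals8, were above 0 in all 6 libraries.

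**Figure D1:**
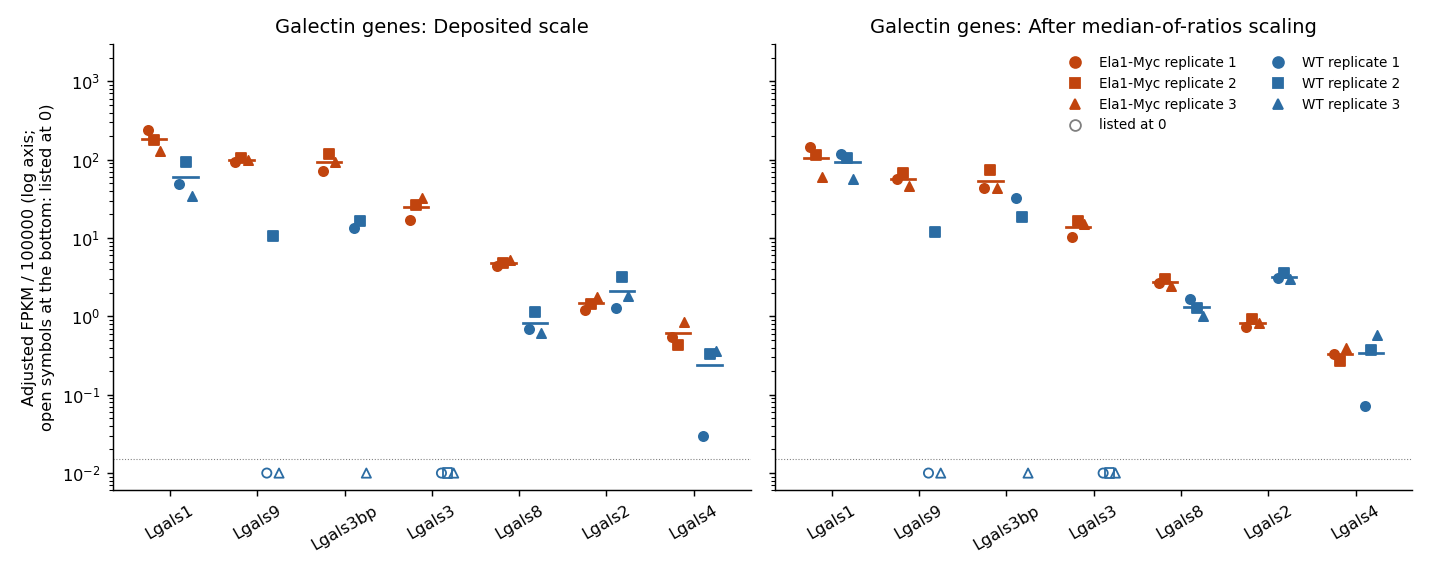
Level of each of the 7 genes in each library, as adjusted FPKM / 100000 on a log axis, on the deposited scale (left panel) and after median-of-ratios scaling (right panel), with Ela1-Myc to the left of WT. Horizontal bars are group means, drawn where no library is listed at 0, and open symbols at the bottom are listed zeros. The 3 Ela1-Myc values of Lgals9 sit between 92.9 and 106.5 in the left panel, above the 10.7 of WT replicate 2, and the Lgals1 groups overlap in the right panel.

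Lgals9 encodes galectin-9, a ligand of the T-cell receptor Havcr2 (TIM-3). The gene (chromosome 11, 78962979 to 78984924, GRCm38) stood at 92.9, 106.5 and 98.7 in Ela1-Myc replicates 1 to 3, against 10.7 in WT replicate 2 and a listed 0 in WT replicates 1 and 3. The groups did not overlap, and 75.3% of tested genes likewise had every Ela1-Myc value above every WT value. The lowest Ela1-Myc value was 8.70 times the highest WT value, and 3.85 times after scaling. Its coefficient of variation within Ela1-Myc was 6.87%, against 29.6% for Lgals1, and after scaling it was 19.1%, against 39.8% for Lgals1. The call stood on the deposited scale (limma adjusted p = 0.00011) and after scaling (adjusted p = 0.019), and both fits treat each listed zero as a measurement. After scaling the call was lost without WT replicate 3 (limma adjusted p = 0.0594) and without Ela1-Myc replicate 1, 2 or 3 (0.0533, 0.083 and 0.0721). Against WT replicate 2 alone, the WT library in which the gene has a value, the log2 change was 3.10 on the deposited scale and 1.93 after scaling (limma adjusted p = 0.00182 and 0.0447). In those fits the lone WT library is assumed to vary like the Ela1-Myc libraries.

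Lgals3bp encodes the galectin-3-binding protein, a secreted scavenger-receptor glycoprotein known to be induced by interferon. The gene (chromosome 11, 118392752 to 118401931) stood at 72.0, 116.5 and 93.2 in Ela1-Myc replicates 1 to 3, against 13.6 and 16.6 in WT replicates 1 and 2 and a listed 0 in WT replicate 3. The groups did not overlap on either scale. On the deposited scale 75.3% of all tested genes had every Ela1-Myc value above every WT value. The lowest Ela1-Myc value was 4.33 times the highest WT value on the deposited scale and 1.33 times after scaling, where 28.9% of all tested genes likewise had every Ela1-Myc value above every WT value. It was called on the deposited scale (limma adjusted p = 0.00259) and not after scaling (limma adjusted p = 0.167), where its values were 43.8, 74.1 and 43.5 in Ela1-Myc against 32.8, 18.6 and a listed 0 in WT. Without WT replicate 3, the library with the listed 0, the log2 change was 2.54 on the deposited scale (limma adjusted p = 0.0137) and 0.99 after scaling (limma adjusted p = 0.195). Against WT replicate 2 alone it was 2.40 on the deposited scale (limma adjusted p = 0.00656) and 1.21 after scaling (limma adjusted p = 0.172).

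Lgals3 encodes galectin-3. The gene (chromosome 14, 47373860 to 47386167) had 16.8, 26.2 and 32.0 in Ela1-Myc replicates 1 to 3, while every WT library lists it at 0. No fold can be given against listed zeros. Its limma adjusted p of 1.45e-06 (0.000406 after scaling) rests on no measured spread in WT. Lgals3 also met the filter, a mean of at least 1, through its Ela1-Myc values alone, which fixed its direction. Its rank among the 23099 symbols by level was 1554, 989 and 872 in Ela1-Myc replicates 1 to 3.

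Lgals8 encodes galectin-8, which detects damaged endosomes by their exposed glycans. The gene (chromosome 13, 12439415 to 12461738) had 4.37, 4.78 and 5.25 in Ela1-Myc replicates 1 to 3, against 0.682, 1.14 and 0.614 in WT replicates 1 to 3. It was above 0 in every library and the groups did not overlap on either scale. Of all tested genes 75.3% on the deposited scale and 28.9% after scaling likewise had every Ela1-Myc value above every WT value. Its WT mean was under the filter of 1, so Lgals8 too was tested only through its Ela1-Myc values, which favoured a higher call. The mean was 4.80 ± 0.436 in Ela1-Myc and 0.814 ± 0.289 in WT (SD, n = 3 each), and the log2 change came to 1.69 ± 0.293 (SE, limma adjusted p = 0.000307). After scaling the log2 change was 0.69 ± 0.181 (SE, limma adjusted p = 0.0353), from 2.72 ± 0.299 in Ela1-Myc and 1.31 ± 0.319 in WT (SD, n = 3 each). The scaled call was kept without WT replicate 1 (limma adjusted p = 0.0344). It was lost without WT replicate 2 or 3 (limma adjusted p = 0.0596 and 0.103) and without Ela1-Myc replicate 1, 2 or 3 (0.0755, 0.122 and 0.106). It was also lost under quantile normalization (limma adjusted p = 0.136).

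Lgals1 encodes galectin-1, and it was the most abundant of the 7 in every library. The gene (chromosome 15, 78926725 to 78930465) stood at 238.3, 178.4 and 130.6 in Ela1-Myc replicates 1 to 3, against 49.6, 94.8 and 34.9 in WT replicates 1 to 3. The groups did not overlap on the deposited scale, where 75.3% of tested genes likewise had every Ela1-Myc value above every WT value. The log2 change of 1.67 ± 0.78 (SE) did not pass (limma adjusted p = 0.067). It passed without WT replicate 2 (limma adjusted p = 0.00276) and with library weights (0.000109). It also passed with a pseudocount of 0.1 (limma adjusted p = 0.0369), with a pseudocount of 1 on the undivided values (0.0408), without the filter (0.0437) and among genes above 0 in all 6 libraries (0.0380), so the call depended on these settings. After scaling the groups overlapped, with 144.8, 113.5 and 61.0 in Ela1-Myc and 119.5, 106.3 and 57.3 in WT, and the log2 change was 0.15 with a 95% interval of -1.03 to 1.34 (limma adjusted p = 0.834). Its rank among all 23099 symbols, which no scaling between libraries alters, was 189, 227 and 263 in Ela1-Myc and 181, 261 and 265 in WT.

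Lgals2 encodes galectin-2, known mainly from the gut epithelium. The gene (chromosome 15, 78850860 to 78855529) had 1.20, 1.44 and 1.75 in Ela1-Myc replicates 1 to 3, against 1.28, 3.19 and 1.81 in WT replicates 1 to 3. These groups overlapped, and the log2 change of -0.29 had a 95% interval of -0.93 to 0.35 (limma adjusted p = 0.385). After scaling the groups separated, with 0.821 ± 0.0921 in Ela1-Myc and 3.21 ± 0.327 in WT (SD, n = 3 each), and 17.2% of tested genes likewise had all Ela1-Myc values below all WT values. The scaled log2 change was -1.21 ± 0.158 (SE, limma adjusted p = 0.00368). The call held under quantile normalization, with the enzyme list left out and without any 1 library after scaling, at limma adjusted p-values between 0.00286 and 0.0323. Its rank was 8865, 8382 and 9291 in Ela1-Myc and 3436, 3345 and 2838 in WT. Such a rank also moves with the other genes, more of which are listed at 0 in WT, so it does not show which genes changed.

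**Figure D2:**
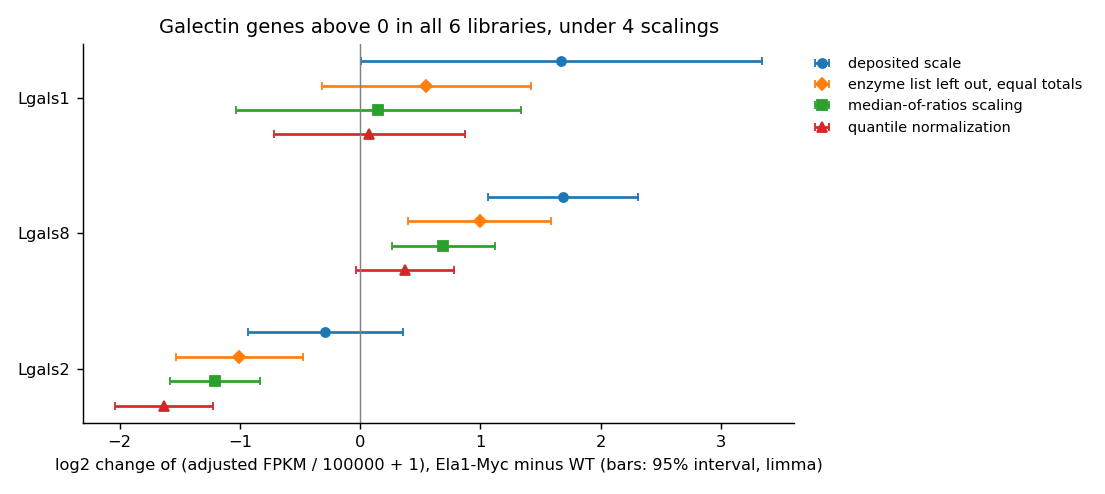
Log2 change, Ela1-Myc minus WT, of the 3 members above 0 in all 6 libraries, under 4 ways of scaling the libraries (points, with 95% intervals from limma as bars). The Lgals2 estimate runs between -0.29 and -1.63, that of Lgals8 between 1.69 and 0.37, and that of Lgals1 between 1.67 and 0.08.

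Lgals4 encodes galectin-4, a gut galectin that binds sulfated glycolipids. The gene (chromosome 7, 28833794 to 28841703) had 0.548, 0.426 and 0.853 in Ela1-Myc replicates 1 to 3, against 0.0295, 0.335 and 0.357 in WT replicates 1 to 3. With a mean of 0.425 it fell under the filter. In a fit of all genes without the filter its log2 change was 0.38, with a 95% interval of -0.01 to 0.77 (limma adjusted p = 0.112). After scaling its groups overlapped, at 0.334 ± 0.0637 in Ela1-Myc and 0.344 ± 0.259 in WT (SD, n = 3 each). Some mouse strains carry a near-identical copy, Lgals6, which overlaps Lgals4 in the files, so reads of the pair cannot be told apart with confidence. Lgals6 had 0.355 and 0.173 in Ela1-Myc replicates 2 and 3 and a listed 0 in the other libraries.

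The order of the levels, which are per length of transcript, differed between the groups. In Ela1-Myc it was Lgals1, Lgals9, Lgals3bp, Lgals3, Lgals8, Lgals2 and Lgals4. Lgals9 and Lgals3bp, at 99.4 ± 6.83 and 93.9 ± 22.3 (SD, n = 3 each), did not differ beyond their spread, and every other neighbouring pair had ranges that did not overlap. In WT, Lgals1 stood first in all 3 libraries, while Lgals3bp and Lgals9 took no fixed place because of their listed zeros. Lgals2 lay above Lgals8, and Lgals8 above Lgals4, in every WT library. Lgals8 and Lgals2 thus stood in opposite order in the groups, with Lgals8 above Lgals2 in all 3 Ela1-Myc libraries and below it in all 3 WT libraries.

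Composition within a library does not depend on scaling between libraries. Lgals1 made up 55.9%, 41.1% and 36.0% of the summed level of the 7 genes in Ela1-Myc replicates 1 to 3, against 76.1%, 74.8% and 92.6% in WT replicates 1 to 3. Lgals9 made up 21.8%, 24.5% and 27.2% in Ela1-Myc, against 8.42% in WT replicate 2, where alone it had a value. Lgals3bp made up 16.9%, 26.8% and 25.7% in Ela1-Myc, against 20.9% and 13.1% in WT replicates 1 and 2, and these shares overlap. Lgals2 made up between 0.282% and 0.483% in Ela1-Myc and between 1.96% and 4.80% in WT. Listed zeros enter these WT sums as 0.

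**Figure D3:**
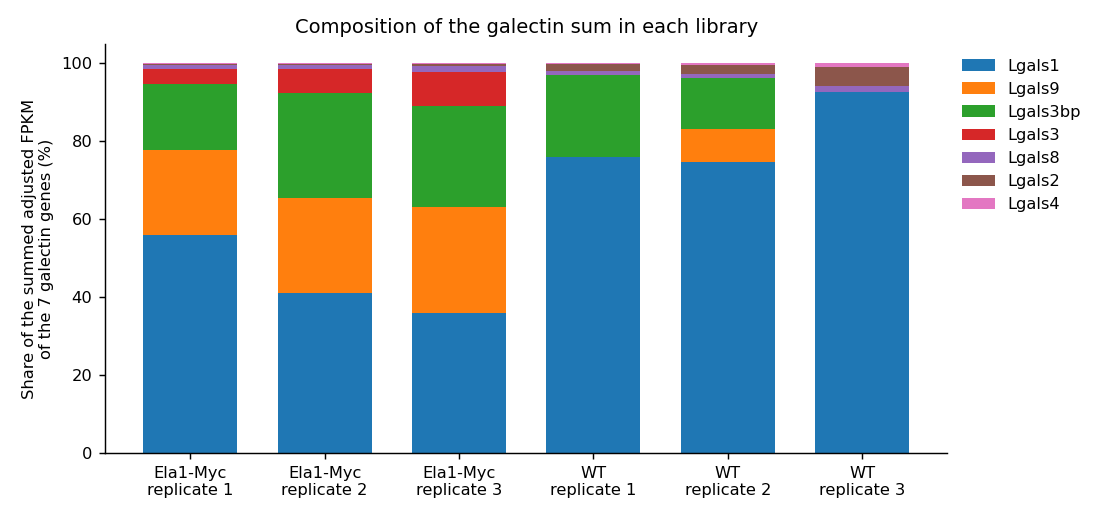
Share of each gene in the summed adjusted FPKM of the 7 genes, in percent, as 1 stacked bar per library, Ela1-Myc at the left and WT at the right. Lgals1 (bottom segment) takes between 36.0% and 55.9% in Ela1-Myc and between 74.8% and 92.6% in WT.

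Ratios between pairs of these genes were formed after their values were seen and are given without a test. Lgals8 per Lgals2 was 3.64, 3.32 and 3.0 in Ela1-Myc replicates 1 to 3, against 0.534, 0.358 and 0.339 in WT replicates 1 to 3. Lgals1 per Lgals2 was 198.2, 124.1 and 74.6 in Ela1-Myc, against 38.8, 29.7 and 19.3 in WT. Lgals8 per Lgals1 was 0.0184, 0.0268 and 0.0402 in Ela1-Myc, against 0.0138, 0.0121 and 0.0176 in WT, groups that are separated by a narrow gap. These ratios show unequal change of the members and not which of them changed.

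**Figure D4:**
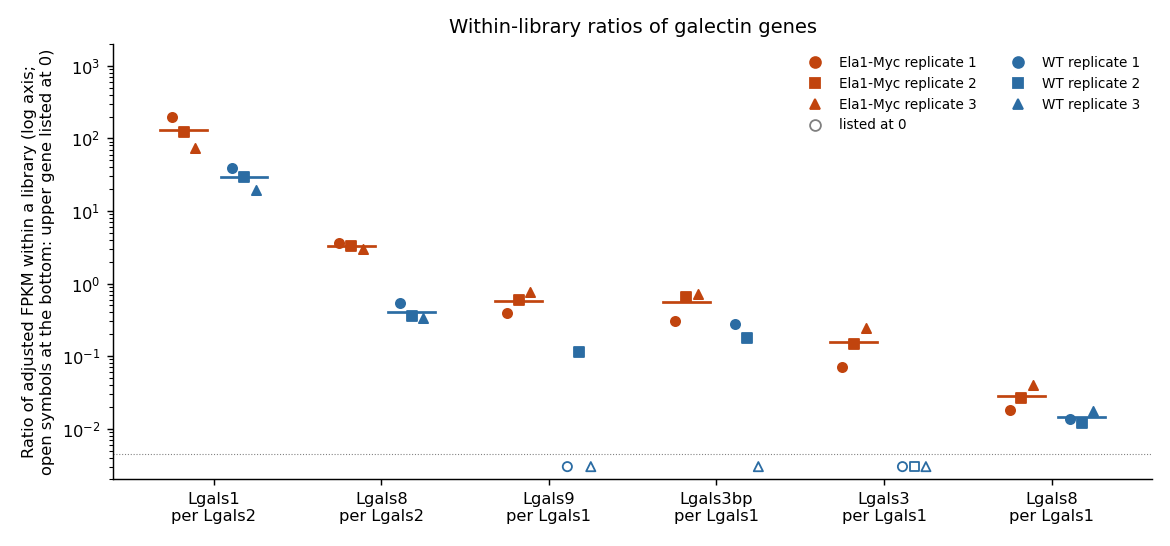
Ratio of the levels of 2 galectin genes within each library, on a log axis, with Ela1-Myc to the left of WT for each pair and group means as bars where no library is at 0. Open symbols at the bottom mark libraries in which the upper gene is listed at 0. Lgals8 per Lgals2 lies between 3.0 and 3.64 in Ela1-Myc and between 0.339 and 0.534 in WT.

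The Ela1-Myc libraries differed among themselves. On the deposited scale replicate 1 had the highest Lgals1 (238.3) and the lowest Lgals3 (16.8) and Lgals3bp (72.0) of the 3. After scaling it still had the highest Lgals1 (144.8) and the lowest Lgals3 (10.2). Scaled Lgals3bp was 43.8, 74.1 and 43.5 in replicates 1 to 3, so replicate 1 was no longer the lowest. Lgals3 per Lgals1 was 0.0703, 0.147 and 0.245 in replicates 1 to 3. The macrophage and myeloid marker sum on the deposited scale was lowest in replicate 1, at 955.6 against 2856 and 2488 in replicates 2 and 3. So was the sum of the interferon response list, at 257.9 against 453.8 and 452.9. After scaling both sums were still lowest in replicate 1, at 580.9 and 156.8. The part of these cells in the differences between replicates was not tested.

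Macrophage markers stood higher beside Lgals3. The list matched 23 genes. Of the 22 tested 20 rose on the deposited scale and none fell, beside 70.2% of all tested genes that rose, with a median log2 change of 4.02, and after scaling 16 rose and none fell, beside 17.1% of all, with a median of 3.03 (limma, and none was lower at an unadjusted p under 0.05 on either scale). For 18 of the 22 at least 1 WT library lists a 0. Emr1, Cd68, Mrc1, Itgam, Itgax, Fcgr1, Fcgr3, Tyrobp, Aif1, C1qb, Mpeg1 and Ctss had a WT mean under 1. These genes met the filter only through Ela1-Myc, which favoured a rise and raised the counts. The summed level of the list lay between 955.6 and 2856 in Ela1-Myc and between 18.4 and 303.5 in WT. After scaling these ranges overlapped (580.9 to 1817 against 30.2 to 731.3). Cd68, a lysosomal protein of macrophages, was at 24.4, 42.9 and 39.3 in Ela1-Myc and, like Lgals3, listed at 0 in all 3 WT libraries, as were 5 of the 23 markers in all. The complement gene C1qb had 87.0, 190.6 and 190.4 in Ela1-Myc, against 0.202 in WT replicate 2 and a listed 0 in the other WT libraries. The lysozyme gene Lyz2 had 190.3, 704.3 and 468.0 in Ela1-Myc, against 28.1, 41.3 and a listed 0 in WT, and the invariant chain Cd74 had 233.4, 913.5 and 843.6 in Ela1-Myc, against 192.2, 45.9 and a listed 0 in WT. The part of these cells in the Lgals3 difference was not tested.

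Stellate and fibroblast markers stood beside Lgals1. Of 14 tested 13 rose on the deposited scale and none fell, beside 70.2% of all tested genes that rose, with a median log2 change of 3.0, and after scaling 8 rose and none fell, beside 17.1% of all, with a median of 1.85 (limma, and none was lower at an unadjusted p under 0.05). Col1a1, Pdgfra, Thy1 and Postn had a WT mean under 1 and met the filter only through Ela1-Myc, which favoured a rise. The scaled sum of the list was between 302.8 and 464.7 in Ela1-Myc and between 86.1 and 195.1 in WT. These ranges did not overlap, whereas those of Lgals1 did. The proteoglycan gene Dcn had 97.3, 247.7 and 192.5 in Ela1-Myc, against 39.0, 69.1 and 41.0 in WT. Its log2 change was 1.78 on the deposited scale and 0.26 after scaling (limma adjusted p = 0.0525 and 0.697). The matrix gene Sparc had 92.6, 116.5 and 136.5 in Ela1-Myc, against 14.4 in WT replicate 2 and a listed 0 in the other WT libraries. Vimentin (Vim) had 63.1, 153.8 and 101.5 in Ela1-Myc, against 26.4, 16.4 and 1.36 in WT (limma adjusted p = 0.00502, and 0.23 after scaling). The part of these cells in the Lgals1 values was not tested.

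Markers of gut epithelium, the usual site of Lgals4 and Lgals2, were near 0. None of the 11 other gut markers that matched reached a mean of 1. Their summed level was between 0.581 and 1.96 in Ela1-Myc and between 0.269 and 0.505 in WT on the deposited scale. After scaling these ranges overlapped (0.353 to 1.24 against 0.336 to 1.22). The defining genes Cdx2, Fabp2 and Alpi were listed at 0 in all 3 Ela1-Myc libraries and stood in each WT library at 1 shared value of 0.00823 or below.

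Interferon response genes stood higher beside Lgals9 and Lgals3bp, both of which are known to respond to interferon. All 29 tested members of the list rose on the deposited scale, beside 70.2% of all tested genes, with a median log2 change of 2.72, and after scaling 23 rose and none fell, beside 17.1% of all, with a median of 1.75 (limma, and none was lower at an unadjusted p under 0.05). For 25 of the 29 at least 1 WT library lists a 0. All tested members but Bst2 and Psmb9 had a WT mean under 1 and met the filter only through Ela1-Myc, which favoured a rise. The counts therefore cannot be read as an excess over all tested genes. The 4 above 0 in all 6 libraries passed on both scales, but they too met the filter only through Ela1-Myc. Irf9, a transcription factor of the interferon response, had 6.06, 5.65 and 10.3 in Ela1-Myc, against 0.874, 0.559 and 0.303 in WT, with a scaled log2 change of 1.35 (limma adjusted p = 0.0239). Stat2 had 3.25, 4.69 and 6.83 in Ela1-Myc, against 0.45, 0.474 and 0.274 in WT, with a scaled log2 change of 1.14 (limma adjusted p = 0.0144). The antiviral gene Rsad2 and the ubiquitin ligase gene Trim25 had scaled log2 changes of 0.93 and 0.77 (limma adjusted p = 0.0218 and 0.0331). The summed level of the list did not overlap between groups on either scale, at 156.8 to 288.7 in Ela1-Myc and 2.85 to 28.3 in WT after scaling. Whether interferon signalling acts on Lgals9 or Lgals3bp here was not tested.

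**Figure D5:**
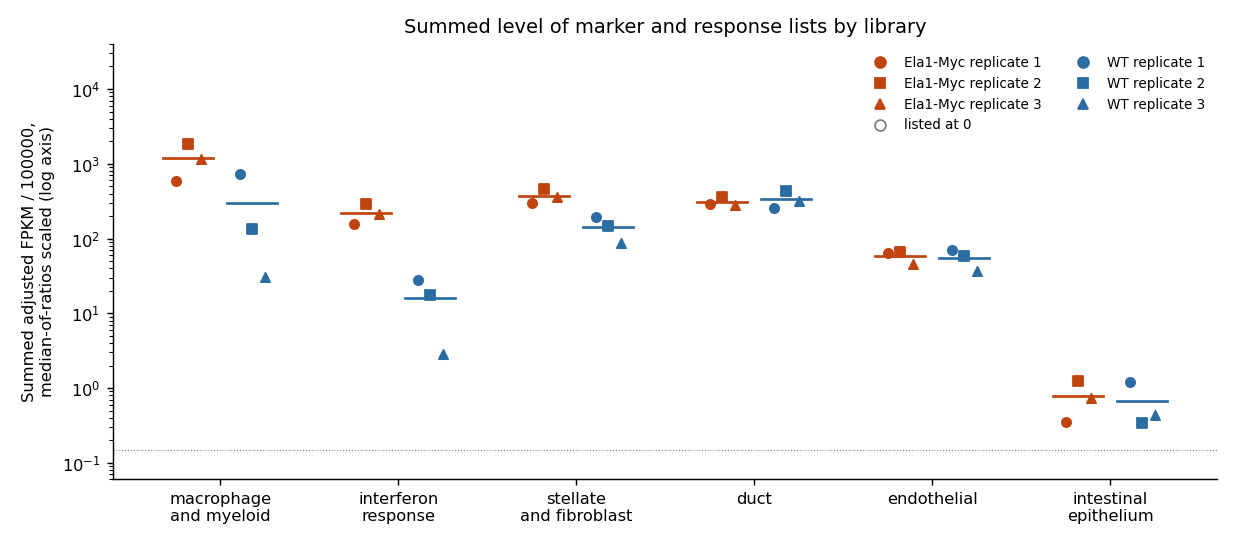
Summed level of 6 gene lists in each library after median-of-ratios scaling, as adjusted FPKM / 100000 on a log axis, Ela1-Myc to the left of WT, with group means as bars. The interferon response sums lie between 156.8 and 288.7 in Ela1-Myc and between 2.85 and 28.3 in WT, while the intestinal sums stay at 1.24 or below in every library.

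Promoter sequences are shown for Lgals9, Lgals3bp and Lgals3, the members with the highest log2 changes, and for Lgals2, the member that was lower after scaling, so that both ends of the family can be compared. RefSeq (GRCm38.p6) held promoters for 6 of the 7 genes. The 250 bases before each annotated start were searched on both strands for the letters CACGTG (E-box, the canonical site of MYC and MAX), the core of the interferon-stimulated response element (GAAA and GAAA with any 2 bases between), TTCNNNGAA (the GAS element), TGANTCA (AP-1), TATAAA and GGGCGG (GC box). Matches stand in capitals, 5′ to 3′ on the strand of the gene.
Lgals9 (chr11:78984925-78985174, minus strand): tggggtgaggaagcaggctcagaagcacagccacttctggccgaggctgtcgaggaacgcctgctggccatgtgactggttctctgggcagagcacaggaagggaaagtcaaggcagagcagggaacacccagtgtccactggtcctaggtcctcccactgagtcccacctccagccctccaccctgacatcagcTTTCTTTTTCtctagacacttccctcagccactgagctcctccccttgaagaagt
Lgals3bp (chr11:118401960-118402209, minus strand): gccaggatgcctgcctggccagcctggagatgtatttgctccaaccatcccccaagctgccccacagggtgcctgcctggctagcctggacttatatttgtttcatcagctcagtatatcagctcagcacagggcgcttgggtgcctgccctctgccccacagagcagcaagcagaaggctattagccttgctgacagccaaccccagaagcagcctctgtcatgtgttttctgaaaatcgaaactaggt
Lgals3 (chr14:47373610-47373859, plus strand): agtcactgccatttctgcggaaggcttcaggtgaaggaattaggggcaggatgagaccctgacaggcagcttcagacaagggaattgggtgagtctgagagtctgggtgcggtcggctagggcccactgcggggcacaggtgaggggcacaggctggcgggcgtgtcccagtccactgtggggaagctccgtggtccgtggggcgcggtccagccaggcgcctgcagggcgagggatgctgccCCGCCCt
Lgals2 (chr15:78855530-78855779, minus strand): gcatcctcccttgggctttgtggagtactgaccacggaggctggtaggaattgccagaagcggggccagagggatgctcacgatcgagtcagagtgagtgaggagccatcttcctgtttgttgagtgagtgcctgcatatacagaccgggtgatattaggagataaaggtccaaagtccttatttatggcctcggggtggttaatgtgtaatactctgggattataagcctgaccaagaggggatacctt

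The Lgals9 window held 1 match to the interferon element core, on the reverse strand and starting 55 bases before the annotated start, and 2.98% of all 32851 promoters held this match in the same window. The Lgals3 window held 1 GC box, as did 32.7% of all promoters. None of the 6 windows held CACGTG, which 6.02% of all promoters did, and none held TTCNNNGAA, TGANTCA or TATAAA, which 7.02%, 6.75% and 12.4% of all promoters did. The Lgals3 window was the richest in CpG, with 13 such pairs and a GC content of 66.0%, against medians of 6 and 52.4% over all promoters. Lgals9, Lgals3bp and Lgals2 had 3, 2 and 6 CpG pairs. A match is a description of letters and not a binding site, and its absence says only that these letters are not in this window.

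Enzymes that build the sugars bound by galectins were called in both directions after scaling. Of 19 listed genes for N-glycan branching and poly-lactosamine synthesis 14 were tested, and 7 rose and none fell on the deposited scale, where 70.2% of all tested genes rose, with a median log2 change of 0.97 against 1.22 for all of them (limma, and none was lower at an unadjusted p under 0.05). After scaling 4 rose and 2 fell, where 17.1% and 7.1% of all tested genes did, with a median of -0.22 against 0.22. Of the 10 above 0 in all 6 libraries 0 rose after scaling (limma, and 0 at an unadjusted p under 0.05). The 4 that rose, named after their values were seen, were the galactosyltransferase B4galt5, the sialyltransferases St6gal1 and St3gal4 and the core branching enzyme Gcnt1, each with a listed 0 in 1 or more WT libraries and a WT mean under 1, so that they met the filter only through Ela1-Myc. The 2 that fell were the Golgi mannosidase Man2a1, by 1.09 log2 units after scaling (limma adjusted p = 0.0343), and the core fucosyltransferase Fut8, by 0.92 (limma adjusted p = 0.0251). On the deposited scale Man2a1 had 9.57, 5.20 and 10.8 in Ela1-Myc and 3.93, 11.6 and 6.48 in WT, with a log2 change of 0.24 that did not pass (limma adjusted p = 0.658). The branching enzyme gene Mgat4b had a scaled log2 change of -1.03 (limma adjusted p = 0.106), and Man2a2 and the main lactosamine-forming enzyme B4galt1 had 0.15 and -0.13 (limma adjusted p = 0.672 and 0.703). Mgat5, whose branches carry high-affinity galectin ligands, stayed under the filter, at 0.447, 0.726 and 0.889 in Ela1-Myc and 0.112, 0.0835 and 0.0494 in WT.

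Genes for glycoproteins and adaptors that bind galectins were called about as often as all tested genes. Of 25 tested 19 rose and none fell on the deposited scale, where 70.2% of all tested genes rose, with a median log2 change of 1.36 against 1.22 for all of them (limma, and none was lower at an unadjusted p under 0.05). After scaling 5 rose and 2 fell, where 17.1% and 7.1% of all tested genes did, with a median of 0.29 against 0.22. The 5, named after their values were seen, were the hyaluronan receptor Cd44, the tetraspanin Cd9, the myeloid receptor Trem2 and the integrins Itgam and Itgav. All but Cd9 had a WT mean under 1 and met the filter only through Ela1-Myc. Cd44 stood at 8.18, 8.23 and 8.82 in Ela1-Myc, against 0.00702 in WT replicate 1 and a listed 0 in WT replicates 2 and 3. The 2 that fell were the adhesion molecule Ceacam1, with a scaled log2 change of -1.33 (limma adjusted p = 0.00697), and the laminin receptor Itga3, with -0.80 (limma adjusted p = 0.0174). On the deposited scale Ceacam1 had 2.18, 2.84 and 3.64 in Ela1-Myc and 2.49, 3.97 and 3.90 in WT, a log2 change of -0.20 that did not pass (limma adjusted p = 0.602). Fibronectin (Fn1) had 19.5, 33.4 and 29.2 in Ela1-Myc, against 10.2, 3.72 and 1.20 in WT, and its log2 change of 2.5 on the deposited scale (limma adjusted p = 0.00295) became 1.14 after scaling (limma adjusted p = 0.305). The endocytic receptor Lrp1 had log2 changes of 1.90 and, after scaling, 0.78 (limma adjusted p = 0.00044 and 0.146). Havcr2, the galectin-9 receptor, was under the filter at 0.194, 0.312 and 0.957 in Ela1-Myc and listed at 0 in all 3 WT libraries.

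The remaining family genes gave a mixed picture. Lgals12, a galectin of adipocytes, had 1.5, 1.66 and 2.31 in Ela1-Myc and 1.85, 2.98 and 2.24 in WT. Like Lgals2 it was not called on the deposited scale (log2 change -0.25, limma adjusted p = 0.446) and was lower after scaling (-1.25 ± 0.173 SE, limma adjusted p = 0.00433). Lgals7, a galectin of stratified epithelium, had 1.48, 6.28 and 2.85 in Ela1-Myc and 1.53, 0.185 and 1.17 in WT, and was called on the deposited scale (log2 change 1.14, limma adjusted p = 0.02) with overlapping groups, but not after scaling (0.14, limma adjusted p = 0.867). The galectin-related gene Lgalsl, which the files list as 1110067D22Rik, had 2.03, 1.62 and 3.27 in Ela1-Myc and 0.681, 0.701 and 1.24 in WT, with a log2 change of 0.80 (limma adjusted p = 0.0212) that became -0.10 after scaling (limma adjusted p = 0.755). The lens gene Grifin was at 0.0497 or below in every library.

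For Lgals1 and Lgals8, the most abundant members above 0 in all 6 libraries, the genes most alike in pattern were sought among the 6995 tested genes above 0 throughout, by Pearson correlation of scaled log2 values over the 6 libraries. The nearest to Lgals1 were the heat shock factor gene Hsf1 (r = 0.981), the phospholipid synthesis gene Pcyt2 (r = 0.977) and the mitochondrial carrier gene Sfxn1 (r = 0.975). The nearest to Lgals8 were the ubiquinone synthesis gene Coq5 (r = 0.997), the ADP-ribosyltransferase gene Parp3 (r = 0.996) and Gemin4 (r = 0.992), a gene of the complex that assembles splicing particles. These correlations describe 6 libraries in 2 groups that share scaling and RNA quality, and high values are found when so many genes are searched.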

How the data were processed

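The deposited files hold 1 adjusted FPKM per gene and library, per the file headers. The labels' protocol records ERCC spike-in RNA, a stranded kit and an RNA integrity minimum of 8.5, which 5 of the 6 libraries do not exceed. The submitters' processing notes name affy, Cufflinks 2.0.2, Bowtie, TopHat2 2.0.4, FastQC 0.9.4, CASAVA 1.8 and build GRCm38 (mm10). The sources used here do not say how values were adjusted or why some are 0.

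Values were divided by 100000. Where a symbol had repeated rows (187 symbols), the one of highest mean was used. The 8802 genes averaging at least 1 were compared with limma 3.58.1 (R 4.3.3) on log2(value + 1), two-sided, with group as the only term, a variance trend and Benjamini-Hochberg adjustment over all 8802; such fold changes understate those of low genes. Median-of-ratios factors came from genes above 0 in all 6 libraries. The fit was tested on simulated data. Exact permutation of 3 against 3 cannot go below p = 0.1 and is not quoted.

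Members, lists and tests were chosen with earlier results of these data known. Named pathway genes are the 2 largest and 2 smallest scaled changes among tested members above 0 throughout, and named markers the 3 highest means. Others are said to be chosen after their values were seen. This also holds for genes named by their WT mean and for Cd68, Muc1, Amy2a5, Fut8, Mgat5, Havcr2, Cdx2, Fabp2 and Alpi. No pair of libraries was a duplicate. Plots used matplotlib 3.10.9 (Python 3.11.15).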

Additional observations from a re-analysis of the deposited data

How the results depend on the processing

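Counts of calls moved with the scaling, the filter and the pseudocount. Genes called numbered 6203 on the deposited scale (6182 higher, 21 lower), 2129 after median-of-ratios scaling (1504 higher, 625 lower), 2309 under quantile normalization (938 higher, 1371 lower), 2469 with the digestive enzymes left out (2169 higher, 300 lower), 3375 with a pseudocount of 1 on the deposited values, 1750 with a mean of at least 5 (3162 genes tested), 8507 without the filter (23099 tested), 7704 with library weights and 4013 with the RNA integrity number as a covariate. Leaving out 1 library gave between 4554 and 7125 on the deposited scale and between 692 and 2396 after scaling (2178 and 1207 without WT replicates 1 and 3 in turn, 1684 and 768 without Ela1-Myc replicates 1 and 2 in turn). Leaving out WT replicates 1 and 3, chosen after seeing the data, gave 2911 and, after scaling, 1655. The galectin genes called higher, 4 in all, numbered 2 under quantile normalization, 2 of the 3 testable among genes above 0 in all 6 libraries, 4 to 5 without 1 library, 1 to 3 without 1 library after scaling, and 2 after scaling without WT replicates 1 and 3. Galectin genes called lower, 0 on the deposited scale, numbered 1, Lgals2, after median-of-ratios scaling, under quantile normalization, with the enzymes left out, after scaling without WT replicates 1 and 3, and after scaling without any 1 library. Lgals1 turned to -0.22 after scaling without WT replicate 3, to -0.086 after scaling without Ela1-Myc replicate 1 and to -0.33 after scaling without WT replicates 1 and 3. With the RNA integrity number as a covariate the deposited-scale count of higher galectin genes was still 4. With a pseudocount of 1 on the deposited values Lgals9 and Lgals3bp lost their calls (limma adjusted p = 0.0604 and 0.188). The cause of these shifts was not tested. Lgals4 could be fitted only without the filter, and only Lgals1, Lgals2 and Lgals8 when genes with a listed 0 were left out. No paired analysis was possible because the labels tie no Ela1-Myc library to a WT library. The replicate numbers used here only name the libraries of a group. The listed zeros and the unknown depth limit what can be said of Lgals3, Lgals9 and Lgals3bp in WT.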

Other observations

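Markers of other cell types were listed too. Their counts stand beside 70.2% of all tested genes called higher and 0.239% called lower on the deposited scale. After scaling these shares were 17.1% and 7.1%. Endothelial markers, 12 tested and all above 0 in every library, numbered 8 higher and 0 lower on the deposited scale and 0 in either direction after scaling (limma, with 1 higher and 0 lower at an unadjusted p under 0.05), and their scaled sums were 45.4 to 66.7 in Ela1-Myc and 37.1 to 69.6 in WT. The endothelial genes Pecam1, Plvap and Egfl7 had scaled log2 changes of -0.24, 0.32 and 0.86 (limma adjusted p = 0.637, 0.607 and 0.0925). Of 11 duct markers 7 were higher on the deposited scale, and 2 were higher and 1, the mucin gene Muc1, lower after scaling. Krt7, called higher on both scales, and Car2, called higher on the deposited scale, had a WT mean under 1. Both met the filter only through Ela1-Myc, which favoured a higher call. Muc1 had 55.9, 48.8 and 66.2 in Ela1-Myc and 68.8, 129.5 and 121.0 in WT. The duct markers Spp1 and Krt18 had scaled log2 changes of 4.67 and -0.08 (limma adjusted p = 0.0723 and 0.908). Spp1 was listed at 0 in WT replicates 1 and 3. Of 16 acinar markers 14 were lower after scaling and 6 on the deposited scale, and 1, the amylase gene Amy2a5, was higher on both. The acinar markers of the highest mean, Ctrb1, Cela2a and Cela1, had scaled log2 changes of -2.22, -2.94 and -2.93. Amy2a5 had 1665, 1421 and 1278 in Ela1-Myc, against 70.4 in WT replicate 2 and a listed 0 in WT replicates 1 and 3 (limma adjusted p = 0.000135, and 0.0207 after scaling).

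Lymphocyte, adipocyte and islet markers varied widely between libraries of 1 group. The lymphocyte sum was 41.8, 382.6 and 292.0 in Ela1-Myc and 80.7, 0.419 and a listed 0 in WT. Of 13 tested lymphocyte markers 13 were higher on the deposited scale and 1 after scaling, beside 70.2% and 17.1% of all tested genes. All 13 had a listed 0 in WT, and all but Cd79a, Cd79b, Ms4a1, Igj and Ltb met the filter only through Ela1-Myc. Adipocyte markers summed to 176.5, 613.1 and 291.4 in Ela1-Myc and 291.5, 47.3 and 15.7 in WT. Of the 9 tested 7 were higher on the deposited scale, beside 70.2% of all tested genes. None was called after scaling (limma, none also at an unadjusted p under 0.05). Islet markers summed to 2450, 2867 and 3371 in Ela1-Myc and 0.308, 2483 and 394.9 in WT. Of 9 tested islet markers 7 were higher on the deposited scale and 2 after scaling, beside 70.2% and 17.1% of all tested genes. Of the 9, 8 had a listed 0 in WT.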
